A study of Mus musculus with 5 samples.

Results

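The columnar keratins Krt7, Krt8, Krt18, Krt19 and Krt20 are the 5 intermediate filament genes of simple epithelia considered here, chosen by name from the 22146 genes of the count tables. They were followed in all 5 inDrop single-cell libraries of the series, in 8491 cells. In the columnar tumor cells Krt8 and Krt19 were the most abundant members in each library. Krt20, Krt8 and Krt19 were higher in cells rich in surface markers than in cells rich in stem cell markers. Krt8, Krt18, Krt19 and Krt20 were lower in squamous than in columnar cells of the same libraries. These falls were not seen with a squamous gate built without keratins, 45.6% of whose cells were columnar in the gate used here. In the columnar and squamous gates, which leave out stem-marker cells, no member differed between late and early chemotherapy beyond the spread of the libraries.

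Keratins form filaments only as pairs of a type II with a type I protein. Krt7 and Krt8 are of type II, and Krt18, Krt19 and Krt20 are of type I. Krt8 with Krt18 is the general pair of simple epithelia, Krt19 is an acidic partner without a long tail, Krt20 marks the differentiated surface cells of the gut, and Krt7 is known from ducts, bladder and other simple epithelia and is scarce in adult colon. Stratified squamous epithelium uses other pairs, with Krt5 and Krt14 in its basal layer.

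The study took tumors from the distal colon of wild-type (WT) mice that had received the carcinogen azoxymethane (AOM) and then the colitis agent dextran sodium sulfate (DSS), and treated them with 5FU+Irinotecan. Early treatment was 2 libraries of day 1 (replicate 1 and replicate 2), and late treatment was 1 library each of day 3 and day 6, all from the "normal dissociation" of AOM/DSS tumors. The normal library came from untreated WT colon by "fibroblast dissociation", in which crypts are shaken off first and the stroma is digested, so its colonocytes are those left behind. Mice were on C57BL/6J or mixed C57BL/6J and 129 backgrounds, and the labels give neither an age nor which animals were pooled in a library. The sources differ on whether a day is counted within or after the treatment, so days are used as names. No untreated tumor library was analysed here, so tumor, treatment and dissociation cannot be told apart in any comparison with normal colon. The single index structure and 1 sequencer were shared by day 1 replicate 1 and day 3, and a dual index structure and another sequencer by day 1 replicate 2, day 6 and normal colon. Values of the treated libraries are given below in the order of day, with replicate 1 of day 1 before replicate 2. P-values measure the spread between these libraries.

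Krt7, Krt8 and Krt18 lie on mouse chromosome 15 (GRCm38, GENCODE vM21) and Krt19 and Krt20 on chromosome 11. Krt7 spans chr15:101411043-101430313 on the plus strand and overlaps the antisense gene Gm671, and Krt8 spans chr15:101996698-102004482 on the minus strand and overlaps the lincRNA Gm36026. Krt18 starts 23697 bases from Krt8, at chr15:102028180-102032027 on the plus strand, so that the general pair lies back to back. Krt19 lies at chr11:100140810-100148665 and Krt20 at chr11:99428403-99438150, both on the minus strand. All 5 are protein-coding genes. Krt8 has 1 annotated pseudogene, which has no row in the tables.

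The promoters of Krt20, Krt7, Krt8 and Krt18 are shown as the start site sequences of members whose levels along the crypt axis are described below. Each runs from 250 bases before to 50 after the start site in RefSeq (GRCm38.p6), with CG pairs in capitals, on the minus strand at chr11:99438104-99438403 for Krt20 and chr15:102004293-102004592 for Krt8, and on the plus strand at chr15:101412153-101412452 for Krt7 and chr15:102027966-102028265 for Krt18.
Krt20: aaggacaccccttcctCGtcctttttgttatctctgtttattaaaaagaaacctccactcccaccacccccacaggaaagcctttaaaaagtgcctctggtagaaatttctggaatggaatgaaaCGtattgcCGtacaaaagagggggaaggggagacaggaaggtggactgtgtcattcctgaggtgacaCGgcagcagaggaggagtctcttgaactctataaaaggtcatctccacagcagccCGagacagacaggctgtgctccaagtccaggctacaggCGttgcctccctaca
Krt8: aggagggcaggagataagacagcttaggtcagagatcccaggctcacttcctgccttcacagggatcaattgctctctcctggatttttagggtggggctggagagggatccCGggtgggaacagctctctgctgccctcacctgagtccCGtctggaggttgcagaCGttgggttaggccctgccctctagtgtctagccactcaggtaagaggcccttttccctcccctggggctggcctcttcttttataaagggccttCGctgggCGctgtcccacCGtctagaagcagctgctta
Krt7: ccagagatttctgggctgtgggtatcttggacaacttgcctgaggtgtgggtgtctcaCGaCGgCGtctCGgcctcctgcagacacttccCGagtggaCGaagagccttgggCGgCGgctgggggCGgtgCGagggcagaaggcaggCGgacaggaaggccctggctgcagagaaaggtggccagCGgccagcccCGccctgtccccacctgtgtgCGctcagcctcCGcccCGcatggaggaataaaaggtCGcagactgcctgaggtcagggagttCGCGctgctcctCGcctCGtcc
Krt18: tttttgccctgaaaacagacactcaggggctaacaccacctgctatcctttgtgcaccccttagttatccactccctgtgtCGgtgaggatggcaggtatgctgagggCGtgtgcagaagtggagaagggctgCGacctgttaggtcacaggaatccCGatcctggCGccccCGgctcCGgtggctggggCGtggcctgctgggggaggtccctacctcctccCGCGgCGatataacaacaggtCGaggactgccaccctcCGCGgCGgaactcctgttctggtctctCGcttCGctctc

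The windows of Krt20 and Krt8 held 6 CG pairs each, and those of Krt7 and Krt18 held 21 and 17. Krt19, which was also called on this axis, is not among them, so no split by CG pairs is read from these windows. The median of 32851 promoters of this length was 7, with quartiles of 3 and 20. The GC content was 50.0% in Krt20, 58.0% in Krt8, 66.3% in Krt7 and 61.3% in Krt18, against a median of 52.7%. On both strands 6 short motifs were searched. The TATA box TATAAA, found in 13.6% of all promoters, was at -29 of Krt20 and at -3 and -1 of Krt8, where the matches of both strands overlap. The TEAD motif GGAATG (14.7% of promoters) matched Krt20 at -139 and -134, which overlap, and at -74 on the other strand. CATAAA (CDX, 11.9%), CACACCC (KLF, 7.95%), TGACTCA (AP-1, 5.20%) and ATCAAAG (TCF/LEF, 3.73%) matched none of these 4 windows. A match of letters is no evidence of binding, and no letters were compared for Krt19.

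The libraries held 5124405 to 16786230 UMIs (unique molecule tags) in 748 to 2826 kept cells, with medians of 2903 to 3601 UMIs per cell, and any pair of libraries shared 4 to 41 barcodes. Cells were gated on marker lists that hold none of the 5 members. The columnar gate took 254, 742, 787 and 1312 cells of the treated libraries, and 316 of normal colon. The squamous gate took 65, 201, 268 and 696 cells of the treated libraries and 0 of normal colon, where 0 of 1095 cells allows a share of up to 0.274%. Krt5 stood at 4607 to 6576 CPM (UMIs per 1000000 UMIs of the summed cells) in squamous cells, at 47.8 to 503 in treated columnar cells and at 0 in normal columnar cells. The columnar markers summed to 7596 to 10446 CPM in columnar cells and to 1880 to 4992 in squamous cells. Krt5 and the columnar list are the gates' own criteria, so these values describe the gates and do not test them, and the columnar list stood at 3003 to 6371 CPM in neutrophils, T cells and macrophages of the treated libraries. A further gate of stem-marker cells, which met the stem cell list but not the columnar level, took 121, 390, 38 and 10 treated cells. Epithelial RNA was also counted in cells of the other gates, and is called free RNA below. Whether it came from the droplet fluid, from doublets or from the gates was not tested. In neutrophils, T cells and macrophages, which should lack these keratins, the median columnar marker reached 40.9, 38.4, 77.6 and 30.9% of its columnar level in the treated libraries and 18.6% in normal colon. These sets held 124, 544, 54 and 277 cells of the treated libraries and 70 of normal colon. The set of normal colon was 55 macrophages and 15 T cells, with 0 neutrophils.

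Among the type II members, Krt8, the general type II keratin, stood at 3159, 5816, 2692 and 6387 CPM in columnar cells of the treated libraries, and at 5517 in normal columnar cells. The single index libraries were the lower ones, and the normal value lay inside the treated range. Krt7 stood at 520.3, 749, 777 and 213 CPM in these cells, and at 118 in normal columnar cells (355 counts, exact 95% Poisson interval 106 to 131). Day 6 was the lowest treated library, and normal colon lay below all 4 treated ones. In neutrophils, T cells and macrophages Krt8 stood at 1354, 2160, 1962 and 2064 CPM and Krt7 at 255, 291, 543 and 127, with 872 and 31.6 in normal colon. Intervals cover counting error only.

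Of the type I members, Krt19 was the most abundant in columnar cells, with 1559, 2928, 1096 and 2484 CPM in the treated libraries and 1844 in normal colon. Krt18, the general partner of Krt8, stood at 624, 753, 736 and 209 CPM in treated and at 463 in normal columnar cells. Krt20 stood at 447, 636, 545 and 1301 CPM in treated and at 283 in normal columnar cells. Day 6 was thus the lowest library for Krt18 and the highest for Krt20, and normal colon was the lowest for Krt20. The levels in neutrophils, T cells and macrophages moved the same way: at day 6 they held 97.8 CPM of Krt18 against 339 to 605 in the other treated libraries, and 523 of Krt20 against 157 to 300.

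UMIs count 3' tags of molecules and are not scaled by transcript length, so member levels can be set side by side within a cell gate, apart from differences in capture. Krt8 was above Krt19 in columnar cells of all 5 libraries, and Krt19 was above the other 3 members. The order below them differed. Krt7 and Krt18 lay within each other's counting intervals in day 1 replicate 2 (728 to 770 and 732 to 774 CPM) and in day 6 (203 to 223 and 199 to 219), and their intervals also overlapped in day 3. In day 6 Krt20 stood above both, and in normal colon the order was Krt18, Krt20, Krt7. With each cell thinned to 1000 UMIs, 87.0 to 98.5% of columnar cells of the 5 libraries held a Krt8 UMI and 62.6 to 90.1% a Krt19 UMI. For Krt7 the shares were 38.2, 47.2, 49.3 and 22.6% in the treated libraries and 8.71% in normal colon (exact binomial interval 5.82 to 12.4%), against 22.6, 24.8, 50.0, 11.2 and 3.13% of neutrophils, T cells and macrophages. The Krt7 share of day 3 was therefore not above its background, which is a share of 54 cells. In CPM, day 3 columnar cells were 1.43-fold above that background for Krt7 and 1.37-fold for Krt8. In neutrophils, T cells and macrophages of the treated libraries 71.0, 80.5, 87.0 and 80.6% held a Krt8 UMI and 50.0, 65.6, 59.3 and 62.3% a Krt19 UMI (21.9 and 9.38% in normal colon), so the Krt8 share of day 3, at 87.0% in both, was not above background either. Before thinning, 70.1, 84.6, 83.1, 51.6 and 38.92% of columnar cells held a Krt7 UMI, at median depths of 2542, 4609, 3557, 2151.5 and 6148.5 UMIs, and 106 columnar cells of day 6 and 6 of normal colon were too shallow to be thinned.

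**Figure D1:**
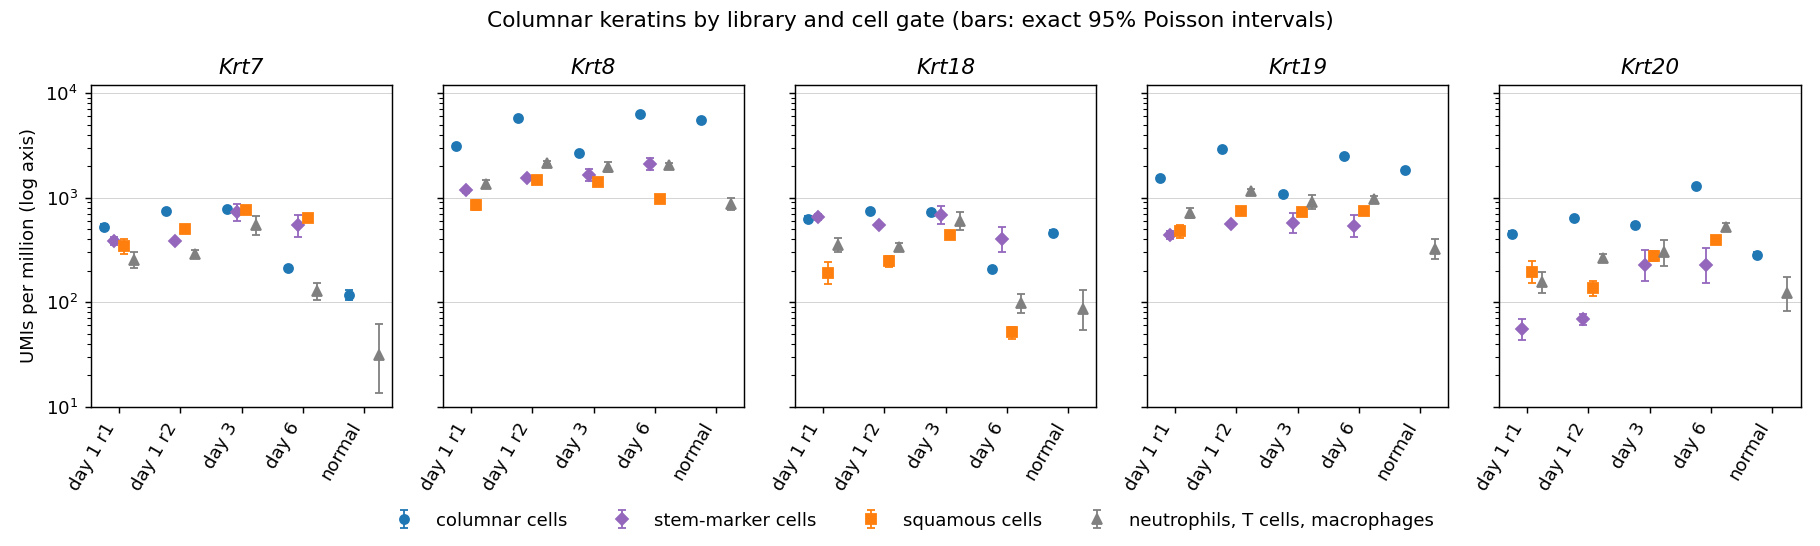
CPM (log axis) of each member in columnar, stem-marker and squamous cells and in neutrophils, T cells and macrophages of each library (r1 and r2 are the replicates of day 1), with exact 95% Poisson intervals of the counts. Columnar cells lie highest for Krt8, Krt19 and Krt20 in every library, squamous cells lie above neutrophils, T cells and macrophages for Krt7 in all 4 treated libraries, and Krt18 drops in all gates at day 6.

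The remaining epithelial gates were small. Goblet cells (31 to 56 cells a library) held 2048 to 5401 CPM of Krt8 and 450.4 to 956 of Krt18, and their Krt20 ranged from 150 CPM in normal colon to 856 at day 6. Paneth cells of the 2 day 1 libraries and of day 3 held 1899 to 2750 CPM of Krt8 but 58.3 to 231 of Krt20, which was 0.372 to 0.772 of the level in neutrophils, T cells and macrophages. Stem-marker cells had low Krt20, at 55.2, 68.6, 227 and 229 CPM, and kept Krt18 at 657, 548, 681 and 402. Their Krt18 was thus above the squamous level in each library and their Krt20 below that of columnar cells. In normal colon, 403 mesenchymal cells held 548 CPM of Krt8 and 14.4 of Krt7, both below the level in neutrophils, T cells and macrophages.

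The crypt axis was read by ranking the columnar cells of each library on surface markers (among them Slc26a3, Aqp8 and Car4) and on stem markers (among them Lgr5, Ascl2 and Smoc2), and taking the highest 25% on each, without cells high on both. These classes are ranges and not cell types: 4.75 to 20.6% of columnar cells lay within 20% of a threshold. Krt20, the surface keratin, stood at 1154, 1819, 921 and 2561 CPM in surface-high cells and at 70.9, 113, 205 and 437 in stem-high cells. The 2 classes did not overlap, and the fold was 16.3, 16.1, 4.497 and 5.86. Stem-high Krt20 was at 0.452, 0.429, 0.684 and 0.835 of the level in neutrophils, T cells and macrophages, and at 0.569 in normal colon. No Krt20 above this background was detectable in stem-high cells, and these folds divide by a level near background. Mesenchymal cells held less, 94.6, 32.2, 148 and 423 CPM, and 50.9 in normal colon. Stem-high Krt20 lay above their level except in day 1 replicate 1. Endothelial cells held 158, 109, 222 and 401 CPM, and 0 in normal colon. Their level was above stem-high Krt20 in day 1 replicate 1 and day 3 only. Surface-high Krt20 was 3.08- to 9.33-fold above the level in neutrophils, T cells and macrophages in the 5 libraries. In normal colonocytes Krt20 stood at 1142 against 69.6 CPM, or 16.4-fold higher in surface-high cells. Krt8 stood at 4766, 8033, 3161 and 7740 CPM in surface-high and at 1420.3, 2860, 2014 and 3640 in stem-high cells, which is 3.36-, 2.81-, 1.57- and 2.13-fold, and 2.44-fold in normal colon. The surface-high value was the higher in each library, while the ranges over libraries overlapped. Krt19 was 2.47-, 2.40-, 1.49- and 1.85-fold higher in surface-high cells of the treated libraries, and 2.62-fold higher in normal colon. Stem-high Krt8 was at 1.05, 1.32, 1.03 and 1.76 of the level in neutrophils, T cells and macrophages, and at 3.35 in normal colon. Stem-high Krt19 was at 1.20, 1.38, 0.965 and 1.46, and at 2.66 in normal colon. In day 1 replicate 1 and day 3 the Krt8 folds thus divide by a level near background, and in day 3 so does the Krt19 fold.

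Over the 4 treated libraries, with library as a block, edgeR called 3 of the 5 members, where it called 29% of 9689 genes in either direction and 16.8% as higher in surface-high cells, and 40.8% had an unadjusted p below 0.05. Krt20 rose by 3.54 ± 0.33 (log2 change ± SE, adjusted p 0.00013), Krt8 by 1.64 ± 0.24 (0.000837) and Krt19 by 1.40 ± 0.20 (0.000806). Krt7, at 0.30 ± 0.17 (edgeR adjusted p 0.21), and Krt18, at 0.24 ± 0.21 (0.409), were not called. Their direction depended on the scale. In CPM Krt7 was 0.735, 1.23, 1.07 and 0.787 of its stem-high level and Krt18 0.647, 1.22, 0.797 and 1.03, and under a gate with marker levels raised 2-fold both log2 changes were below 0, at -0.11 and -0.32. Under that gate Krt19 was no longer called (0.37, edgeR adjusted p 0.123). Surface-high cells had median depths of 4681.5, 5741, 4295 and 3169 UMIs and stem-high cells 2496.5, 4930, 3219 and 2508, and thinning all cells to 1000 UMIs gave Krt20, Krt8 and Krt19 changes of 2.48, 0.87 and 0.58 with all 3 still called. The part of free RNA in these differences was not tested.

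Among normal colonocytes, Krt7 stood at 18.4 CPM (8 counts) in surface-high and at 243 CPM (220 counts) in stem-high normal cells, a fold of 0.076. The treated libraries held 196 to 734 CPM in surface-high cells, all above the normal value, and 248 to 688 in stem-high cells. Treated surface-high Krt7 was 1.22, 2.06, 1.35 and 1.54 times the level in neutrophils, T cells and macrophages of its library. The surface-high level of normal colon was below that of its macrophages and T cells (31.6 CPM, with 0 neutrophils in this library). It was above the 14.4 CPM of its mesenchymal cells, the 11.1 of endothelial, the 7.19 of smooth muscle and the 4.30 of plasma cells. Whether it lay above background thus depends on the cells taken as background. In an edgeR interaction test, added after the data were seen, the surface to stem change of Krt7 was lower in normal colon than in tumors by 3.69 on the log2 scale (adjusted p 0.0251), where 0.987% of 9020 genes were called. Krt18 was at 241 against 635 CPM in normal cells, a fold of 0.38, and its difference from tumors was -1.30 (edgeR adjusted p 0.248). The normal arm of this test is 1 library, whose spread is taken from the treated libraries, so it has no replicate check of its own. The classes were also cut at a different marker level in each library, as given above. Between late and early treatment the surface to stem change of Krt20 differed by -1.55 (edgeR p 0.00254, adjusted p 1.00), so it did not pass the correction, and 0% of genes did.

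**Figure D2:**
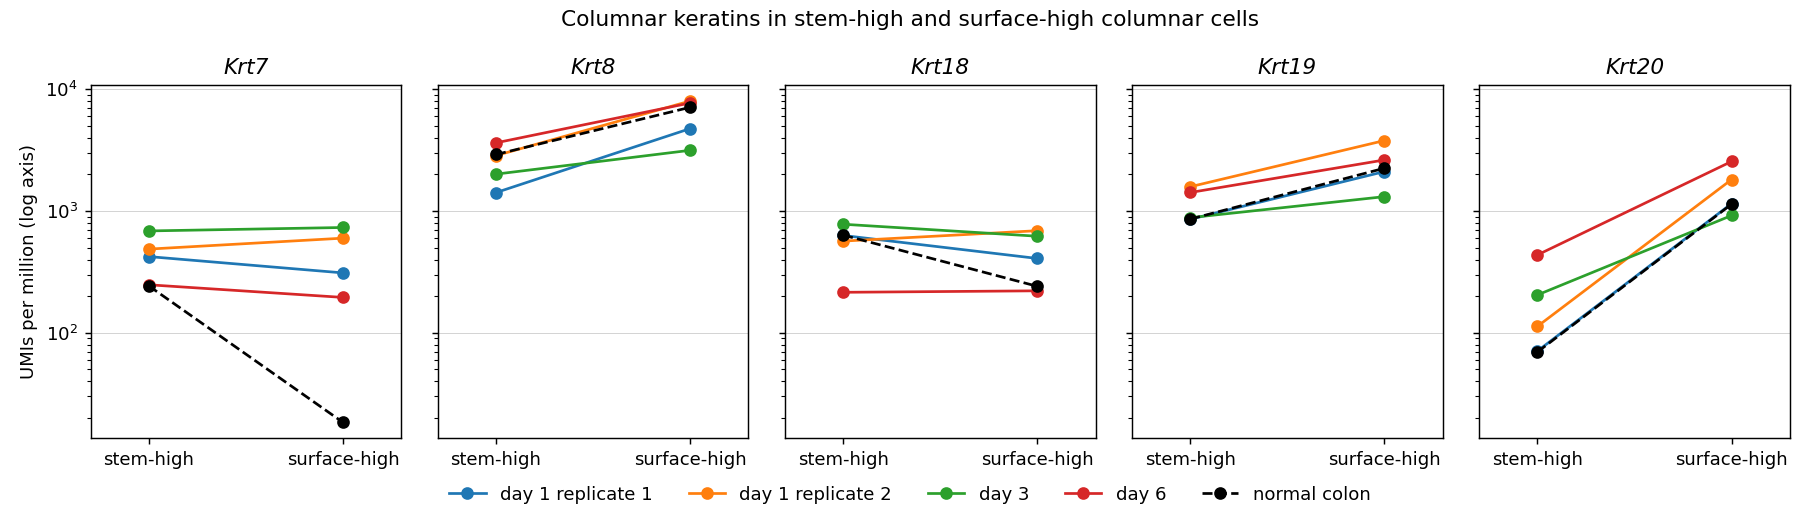
CPM (log axis) of each member in stem-high and surface-high columnar cells, with a line per library and normal colon dashed. Krt20, Krt8 and Krt19 are higher in surface-high cells in all 5 libraries, and Krt7 of normal colon falls from 243 to 18.4.

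Of 20 columnar differentiation genes, 19 were tested on this axis and 16 rose, with a median log2 change of 1.66 against -0.03 over all genes. The largest were the chloride exchanger Slc26a3 (4.09) and the carbonic anhydrase Car4 (4.002), which are themselves surface markers. Of the 10 tested that are not markers of the classes, 9 rose. Of 13 keratin filament linkers, 9 were tested and 6 rose, led by the plakins Plec (2.29) and Dst (1.53), with a median of 1.12. Of 19 other keratins, 12 were tested and 3 rose, with Krt84 at 1.60 and Krt13 at 0.88 the largest, and the median was 0.23.

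In squamous cells Krt8 stood at 844, 1467, 1403 and 966 CPM, below the columnar level of the same library in all 4. Krt18 stood at 191, 248, 443 and 51.4 CPM, Krt19 at 478, 753, 731 and 744, and Krt20 at 196, 136, 276 and 397, each below its columnar value in 4 of 4 libraries. Krt7 stood at 342, 499, 767 and 642 CPM. That was below the columnar level in 3 libraries and at 302% of it in day 6. Stem-marker, goblet and enteroendocrine cells of day 6 also stood above the columnar Krt7 level, at 256, 206 and 260% of it. Relative to neutrophils, T cells and macrophages, Krt7 of squamous cells was 1.34-, 1.71-, 1.41- and 5.07-fold higher, while Krt8 was at 0.468 to 0.715, Krt18 at 0.525 to 0.733 and Krt19 at 0.654 to 0.798 of that background. Krt20 was above it in day 1 replicate 1 (1.25-fold) and below it in the other 3 libraries. At this background no level of Krt8, Krt18 or Krt19 of their own was detectable in squamous cells. Endothelial cells of the treated libraries held 383, 1172, 1701 and 1590 CPM of Krt8. Their Krt18 stood at 75, 193, 400 and 129 CPM, and their Krt19 at 263, 553, 635 and 788. Squamous cells lay above endothelial cells for each of these genes in both day 1 libraries, and below them in day 6. In day 3 squamous cells lay below for Krt8 and above for Krt18 and Krt19.

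With library as a block, edgeR called 4 of the 5 members between squamous and columnar cells, where 22.5% of 11699 genes were called, 11.9% as lower, and 34.3% had an unadjusted p below 0.05. Krt8 fell by 1.84 ± 0.29 (log2, adjusted p 0.00236), Krt20 by 1.49 ± 0.22 (0.00172), Krt18 by 1.46 ± 0.23 (0.00267) and Krt19 by 1.45 ± 0.24 (0.0029). Krt7 changed by 0.14 ± 0.31 (edgeR adjusted p 0.809). Its late to early difference in this contrast was 1.24 (edgeR p 0.0253, adjusted p 0.976), and without day 6 the change was -0.30. With a squamous gate built from 10 markers that are no keratins, the falls were lost: Krt8 stood at 0.15, Krt18 at 0.12 and Krt19 at 0.06, while Krt20 (1.49, edgeR adjusted p 0.00611) and Krt7 (0.94, 0.00768) were higher than in columnar cells. Of the 1885 cells of that gate, 859 (45.6%) were columnar and 983 (52.1%) squamous in the gate used here, and its columnar markers summed to 5481 to 7273 CPM in the treated libraries. In normal colon it took 24 cells, all of them columnar in the gate used here, with Krt5 and Krt14 at 0 CPM.

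Among the other keratins 13 of 19 were tested between squamous and columnar cells and 11 rose, with Krt5 (5.09) and Krt17 (4.96) the largest, both squamous gate markers. Of the 7 tested that are not gate markers, 5 rose, and the median over all 13 was 3.44 against 0.00 over all genes. Of 10 linkers tested 6 rose, with the desmosomal plakophilin Pkp1 (2.41, a gate marker) and the envoplakin gene Evpl (1.85) the largest, and Pkp2, the plakophilin of simple epithelia, fell by 2.11. Of the 20 differentiation genes 15 fell, with Slc26a3 at -2.98 and the mucin Muc3 at -2.52, and 11 of the 16 that are not gate markers did.

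**Figure D3:**
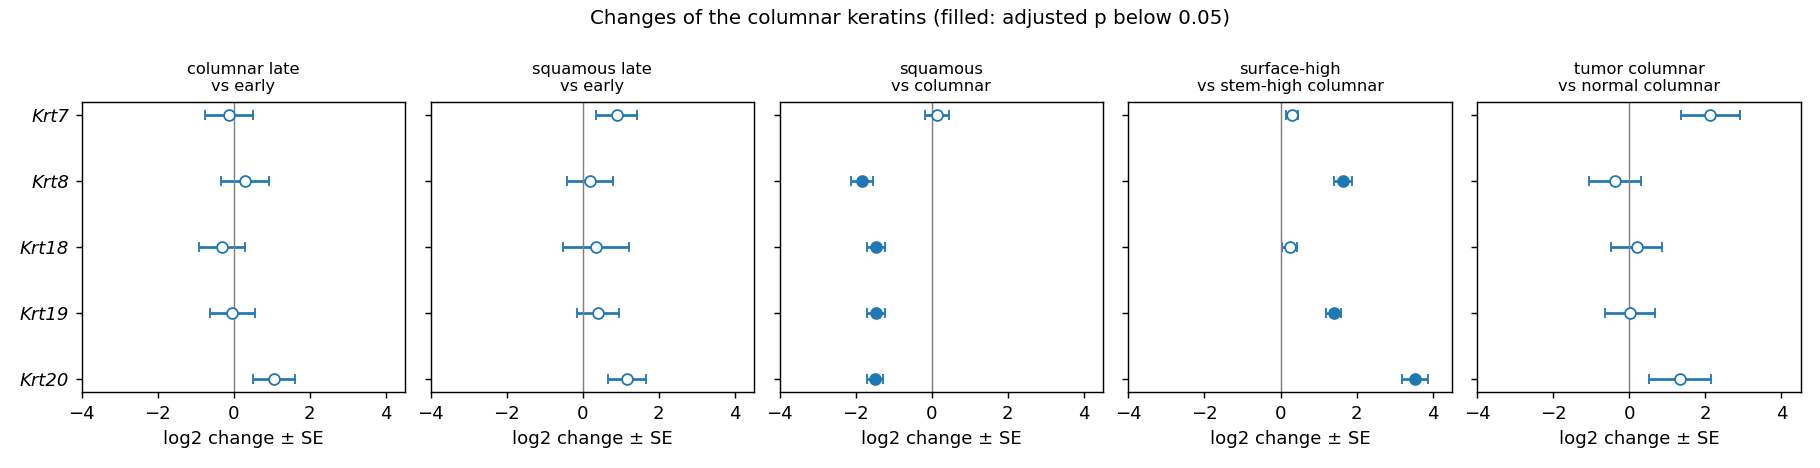
Log2 change of each member with its SE from edgeR in the 5 comparisons, with filled points for an adjusted p below 0.05. Filled points are Krt8, Krt18, Krt19 and Krt20 in squamous against columnar cells and Krt8, Krt19 and Krt20 in surface-high against stem-high cells.

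The ratio of the general pair, Krt8 to Krt18 UMIs, was 5.06, 7.72, 3.66 and 30.5 in treated columnar cells and 11.9 in normal ones. Day 6 stood apart from the other 3 treated libraries, and its ratio was also the highest in squamous cells (18.8 against 3.17 to 5.92) and in neutrophils, T cells and macrophages (21.1 against 3.24 to 6.37). Day 6 and normal colon share the dual index structure with day 1 replicate 2, whose ratio lay with the single index libraries. Along the crypt axis the ratio rose within every library, from 2.25, 5.04, 2.58 and 16.9 in stem-high to 11.7, 11.6, 5.08 and 35.0 in surface-high cells, and from 4.59 to 29.6 in normal colon. The mean change was 1.40 on the log2 scale, or 2.64-fold, with an exact permutation p of 0.125 (two-sided, 4 pairs), the smallest these libraries can give, and 0.125 after adjustment over the 6 ratios. Stem-high Krt8 was at 1.05 in day 1 replicate 1 and 1.03 in day 3 of the level in neutrophils, T cells and macrophages. Surface-high Krt18 was at 1.15 and 1.03 of it, so in these libraries 1 part of each ratio lay near background. Stem-marker cells, which lie outside the columnar gate, had ratios of 1.79, 2.83, 2.42 and 5.24, below the columnar ratio in each library. Their Krt8 was at 0.867, 0.719, 0.84 and 1.02 of the level in neutrophils, T cells and macrophages. The Krt8 part of these ratios therefore cannot be told apart from free RNA.

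**Figure D4:**
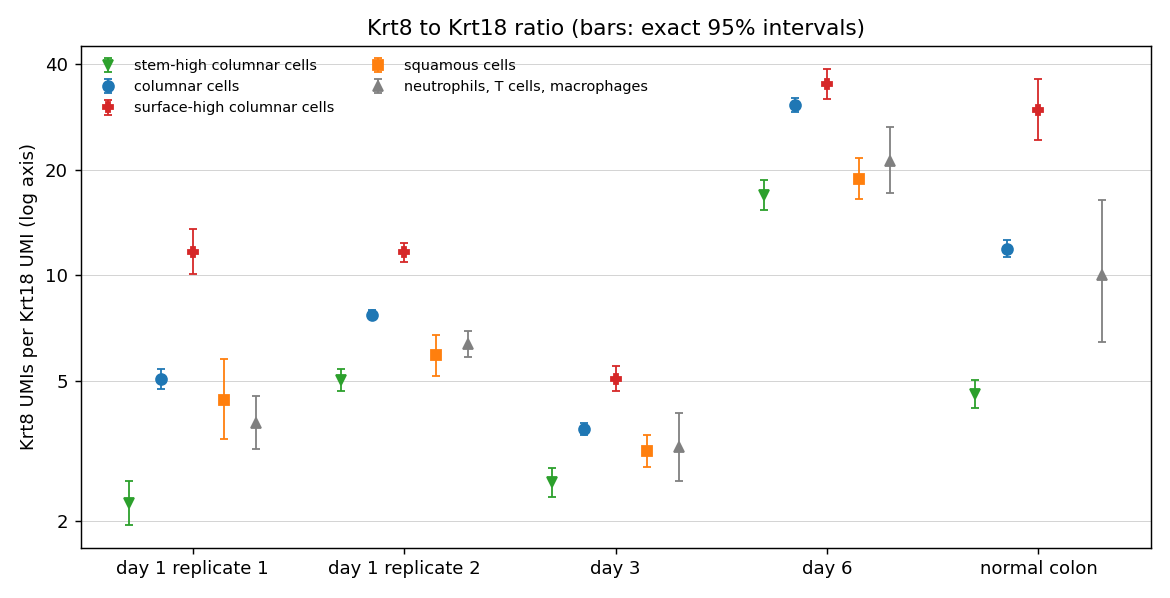
Krt8 UMIs per Krt18 UMI (log axis) in stem-high, all and surface-high columnar cells, squamous cells, and neutrophils, T cells and macrophages of each library, with exact 95% intervals of the counts. Surface-high cells have the highest ratio of each library, and all gates of day 6 lie above those of the other treated libraries.

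The other ratios also moved along the axis in 4 of 4 treated libraries, each at the same smallest exact p of 0.125. Krt20 to Krt18 rose 10.2-fold, Krt20 to Krt19 4.54-fold and Krt19 to Krt18 2.24-fold, whereas Krt7 to Krt8 changed to 0.394 and Krt7 to Krt19 to 0.465 of the stem-high ratio. Stem-high Krt20 lay below the level in neutrophils, T cells and macrophages in each treated library, and stem-high Krt19 did in day 3. With that level subtracted, Krt20 to Krt18, Krt20 to Krt19, Krt19 to Krt18 and Krt7 to Krt19 gave no value on this axis. In squamous cells Krt7 to Krt8 was 0.406, 0.340, 0.547 and 0.665, against 0.165, 0.129, 0.289 and 0.0333 in columnar cells, or 3.96-fold higher on average (exact permutation p 0.125, 0.25 after adjustment over 6 ratios). Krt7 to Krt19 was 0.716, 0.662, 1.05 and 0.864 in squamous and 0.334, 0.256, 0.709 and 0.0856 in columnar cells, 3.02-fold higher with the same p. Both ratios were higher in squamous cells of all 4 libraries. The Krt8 to Krt18 ratio was lower in them in 4 of 4, at 0.773 of the columnar ratio (exact permutation p 0.125), and with the squamous gate without keratins its log2 change was 0.032. The 3 ratios among Krt18, Krt19 and Krt20 went both ways among the libraries: Krt20 to Krt18 was 1.03, 0.548, 0.622 and 7.72 in squamous against 0.717, 0.845, 0.741 and 6.22 in columnar cells (exact permutation p 0.875 to 1.00 for the 3 ratios). With the gate without keratins Krt20 to Krt18 and Krt20 to Krt19 changed by 1.38 and 1.44 on the log2 scale. Squamous Krt8, Krt18 and Krt19 were below the level in neutrophils, T cells and macrophages. Squamous ratios built on them therefore cannot be told apart from those of free RNA. Krt7 to Krt8 was 0.188, 0.135, 0.277 and 0.0614 in neutrophils, T cells and macrophages. In normal columnar cells Krt7 to Krt8 was 0.0213, below all treated libraries, and Krt20 to Krt19 was 0.154, also below them.

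Between late and early treatment edgeR called 0 of the 5 members in columnar cells, and 0% of 12748 genes, while 6.9% had an unadjusted p below 0.05 and DESeq2 called 73 genes. Krt20 had the largest change, at 1.05 ± 0.55 (adjusted p 0.739). Its early values of 447 and 636 CPM overlapped the late ones of 545 and 1301. The columnar gate leaves out the stem-marker cells, 121 and 390 in the early and 38 and 10 in the late libraries. These held less Krt20 than columnar cells, 55.2 and 68.6 CPM in the early and 227 and 229 in the late libraries. The comparison therefore covers columnar-gated cells only. Krt8 changed by 0.30 ± 0.63, Krt19 by -0.04 ± 0.60, Krt7 by -0.12 ± 0.63 and Krt18 by -0.31 ± 0.60 (edgeR adjusted p 0.916 to 0.992). Within single index libraries, day 3 to day 1 replicate 1, the CPM folds were 1.49 for Krt7, 1.18 for Krt18 and 1.22 for Krt20. Within dual index libraries, day 6 to day 1 replicate 2, they were 0.284, 0.278 and 2.04, so Krt7 and Krt18 went in opposite directions by structure. In neutrophils, T cells and macrophages the folds of the 3 genes were 2.13, 1.70 and 1.91 within single index and 0.436, 0.289 and 1.99 within dual index libraries. The Krt20 to Krt19 ratio was 0.287 and 0.217 in early and 0.497 and 0.524 in late columnar cells, without overlap, a change of 1.03 on the log2 scale (exact permutation p 0.333, the smallest for 2 against 2 libraries, and 1.00 after adjustment over 6 ratios). The ratio was 0.219 and 0.229 in early and 0.327 and 0.536 in late neutrophils, T cells and macrophages, also without overlap.

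In squamous cells edgeR likewise called 0 members between late and early treatment, and 0% of 9754 genes, with 3.42% at an unadjusted p below 0.05 and 16 genes called by DESeq2. Krt20 changed by 1.17 ± 0.50 and Krt7 by 0.89 ± 0.55, and Krt19, Krt18 and Krt8 by 0.40 ± 0.56, 0.35 ± 0.87 and 0.18 ± 0.61 (all adjusted p 0.998). Krt7 and Krt20 were higher in both late libraries than in both early ones, and did not overlap. Within structures, Krt7 was 2.24-fold (single index) and 1.29-fold (dual index) higher in late libraries and Krt20 1.41- and 2.92-fold, while Krt18 was 2.32-fold higher in the former and at 0.207 in the latter. In neutrophils, T cells and macrophages Krt20 was 1.91- and 1.99-fold higher in the same pairs, and Krt7 was at 2.13 and 0.436, and squamous Krt20 lay below that background in day 1 replicate 2, day 3 and day 6. None of the other keratins, linkers and differentiation genes was called in either cell type, and the most abundant were Krt13 (2.14) and Krt6a (1.09), Plec (0.63) and Jup (0.52), and Ceacam1 (-0.01) and Muc3 (0.93) in columnar cells. In squamous cells they were Krt14 (-0.65) and Krt6a (-0.78), Jup (0.12) and Pkp1 (-0.04), and Ceacam1 (0.33) and Ezr (0.31). The median changes of the 3 lists in this order were 1.39, 0.49 and 0.33 in columnar cells (0.02 over all genes) and 0.69, 0.18 and 0.63 in squamous cells (0.04 over all genes). Columnar Krt13 stood at 347, 116, 832 and 878 CPM, and at 364, 85.1, 955 and 1095 in neutrophils, T cells and macrophages. Columnar Krt6a lay below the level in these cells in each treated library. The part of free RNA in the columnar changes of the other keratins was not tested.

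Against normal colon, the treated columnar cells had more Krt7 in 4 of 4 libraries, with a log2 change of 2.13 ± 0.79, but edgeR called 0 members (Krt7 p 0.027, adjusted p 0.253), where 1.57% of 13623 genes were called and 16.3% had an unadjusted p below 0.05. DESeq2 called Krt7, and it also called more genes than edgeR in this comparison. That call rests on 1 normal library without a spread of its own. Krt20 changed by 1.32 ± 0.81 (edgeR adjusted p 0.456), with the 4 treated values of 447 to 1301 CPM above the normal 283. Krt8 changed by -0.38 ± 0.68, Krt18 by 0.19 ± 0.67 and Krt19 by 0.02 ± 0.66 (edgeR adjusted p 0.812 to 0.990), and their normal values lay inside the treated range. The single normal library was assumed to vary like the treated ones, and its free RNA was lower: Krt7 stood at 31.6 CPM in its neutrophils, T cells and macrophages against 127 to 543 in treated libraries.

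Of 14 other keratins tested against normal colon 5 rose, and 7 had 0 counts in normal columnar cells. Krt6a, at 293 to 840 CPM in treated columnar cells, was at least 295-fold higher than the 0.995 CPM that 3 counts would give, and Krt6b, at 62.8 to 181 CPM, at least 63.1-fold. Both levels were below those of neutrophils, T cells and macrophages of the same libraries, at 456 to 1062 and 115 to 283 CPM. With the bound for the 7 genes, the median log2 change of the list was 5.85, against 0.11 over all genes. Of 11 linkers tested none was called, with Plec at 1.38 and Jup at 0.73 the most abundant and a median of 0.73. Of 20 differentiation genes 2 fell, the water channel gene Aqp8 at -3.98 and the guanylin gene Guca2a at -2.515 on the log2 scale, and the median was -1.15.

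Over 47 sums of at least 20 cells, a library and a gate each, the levels of Krt8 and Krt19 were the most alike of the members (Pearson r 0.957 on log2(CPM + 10)). The genes most like Krt8 were Krt19, Cystm1 (0.909) and Sdcbp2 (0.902), and those most like Krt19 were Krt8, Cystm1 (0.904) and Sdcbp2 (0.904). Lypd8 (0.893), Sdcbp2 (0.873) and Sprr2a3 (0.838) were most like Krt20, Serinc2 (0.899), Lsr (0.897) and Ephb2 (0.893) most like Krt7, and Fermt1 (0.906), Tmprss4 (0.897) and Nlrp4e (0.896) most like Krt18. Krt18 was closer to Krt7 (0.830) than to its partner Krt8 (0.681), and Krt18 and Krt20 were the least alike pair (0.350). The sums share libraries, depth and free RNA, and the values describe these sums only.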

How the data were processed

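The deposited files hold raw UMI counts per gene and cell barcode, which the authors made with dropEst on reads aligned to GRCm38, per the labels and the study's methods. Cells with at least 500 genes and at most 15% mitochondrial counts were kept. Each cell was gated by the summed level of marker lists without the 5 members, per 10000 UMIs, at levels set after the data were seen. The members and lists were chosen with earlier results of these data known. Named genes are the members, the 3 genes most alike each, and from each list those with the 2 largest called changes in each direction, or the 2 most abundant where none was called. Counts were summed per library and gate (at least 10 cells) and tested with edgeR 4.0.16 (TMM, filterByExpr, quasi-likelihood, two-sided, Benjamini-Hochberg over all genes tested, threshold 0.05) in R 4.3.3, with DESeq2 1.42.0 as an alternative. The fits were tested on simulated data. Ratios needed at least 10 counts of each gene and were tested by two-sided exact permutation over libraries. Scrublet in scanpy 1.11.5 scored doublets, and none was removed except in 1 alternative. Protein sequences and the Krt19 promoter were not used here. The alternatives were other normalization and filters, a library structure block, each library left out, Leiden clusters in place of gates, a stricter gate, a squamous gate without keratins, free RNA subtracted, and thinned or deeper cells. A further marker class of columnar cells is not reported here.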

Additional observations from a re-analysis of the deposited data

Results flagged for a closer look

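In 44 groups of the 4 treated libraries, a member's CPM or a ratio in a gate, the gap of the highest or lowest library to its neighbour was compared with Dixon's 95% limit, which chance passes in about 1 of 20 groups. The library farthest from the others was day 6 in 6 of the 7 groups that passed. Its Krt8 to Krt18 ratio in columnar cells was 30.5, its Krt20 to Krt18 ratio was 6.22 in columnar cells, 7.72 in squamous cells, 11.6 in surface-high cells and 2.03 in stem-high cells, and its Krt19 to Krt18 ratio in squamous cells was 14.5. All 6 have Krt18 as the denominator, which stood at 209 CPM in columnar cells and at 97.8 in neutrophils, T cells and macrophages of day 6. The other group was Krt19 in squamous cells, where day 1 replicate 1 was low, at 478 CPM (65 cells).

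The surface to stem change of Krt7 differed between normal colon and tumors by -3.69 on the log2 scale in an edgeR interaction test (adjusted p 0.0251), from 8 and 220 counts in the normal cells. The normal arm is a single library, its spread is taken from the treated libraries, and the test was added after the data were seen.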

How the results depend on the processing

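Of 316 member changes under alternatives, 272 were counted as the same, and 223 of 248 ratio changes kept their direction. A member change was the same if it kept direction and side of the threshold. With free RNA subtracted, which gave no p-value, it was the same if it kept direction and moved by less than its SE. The alternatives with only cells of at least 2000 UMIs, with columnar and stem-marker cells together, and with the squamous gate without keratins for ratios were chosen after seeing the data. The genes called between late and early treatment numbered 73 (DESeq2), 317 (no filter on low counts) and 0 to 32 (1 library left out) in columnar cells, and 16, 79 and 2 to 231 in squamous cells, with 1 under the squamous gate without keratins. Library structure was also fitted as a block, which pairs day 1 replicate 1 with day 3 and day 1 replicate 2 with day 6: 28 genes were called in columnar and 34 in squamous cells, no member among them, and Krt18 in squamous cells turned to -0.40. Thinning to 1000 UMIs left 1201 genes between squamous and columnar cells and 789 between surface-high and stem-high cells, the latter 953 with the stricter gate and 1230 to 2569 with 1 library left out. Against normal colon 709 (DESeq2), 386 (no filter), 121 (with stem-marker cells) and 104 to 757 genes (1 library left out) were called. The cause of these shifts was not tested. Few cells, rather than few UMIs per cell, stand behind some gates: 10 to 39 enteroendocrine cells a treated library and 10 stem-marker cells of day 6 (median 9034 UMIs).

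Changes between late and early treatment turned direction as follows. With 1 library left out they ranged in columnar cells from -1.27 to 0.52 (Krt7), -0.51 to 0.82 (Krt8), -1.41 to 0.32 (Krt18) and -0.80 to 0.46 (Krt19), and in squamous cells from -0.20 to 0.67 (Krt8) and -2.01 to 1.20 (Krt18). With stem-marker cells Krt7 was at 0.25 and Krt19 at 0.61, Krt8 was at -0.18 with the stricter gate and -0.53 with free RNA subtracted, and Krt19 was at 0.0089 without a filter and 0.022 by Leiden clusters. In squamous cells thinning gave -0.15 (Krt8), -0.25 (Krt18) and -0.084 (Krt19), and the gate without keratins -0.68, -0.81 and -0.70. The columnar ratios ranged, with 1 library left out, from -0.77 to 2.29 (Krt8 to Krt18), -2.13 to 0.99 (Krt7 to Krt8), -1.06 to 1.93 (Krt19 to Krt18), -0.071 to 3.00 (Krt20 to Krt18) and -1.77 to 1.28 (Krt7 to Krt19, 0.11 with the stricter gate), the extreme at the other sign being without day 6. In squamous cells they ranged from -0.69 to 1.88 (Krt8 to Krt18), -0.74 to 2.39 (Krt19 to Krt18) and -0.27 to 3.36 (Krt20 to Krt18).

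Between squamous and columnar cells, Krt7 ranged from -0.30 to 0.35 with 1 library left out and was at -0.055 with free RNA subtracted, where Krt8, Krt18, Krt19 and Krt20 gave no value because a level fell to 0 or below. The squamous gate without keratins turned Krt8 to 0.15, Krt18 to 0.12, Krt19 to 0.063 and Krt20 to 1.49, and the ratios Krt8 to Krt18 to 0.032, Krt19 to Krt18 to -0.057, Krt20 to Krt18 to 1.38 and Krt20 to Krt19 to 1.44. Krt19 to Krt18 was at -0.39 with the stricter gate and -0.062 with thinning, and ranged from -0.068 to 0.15 with 1 library left out. Krt20 to Krt18 and Krt20 to Krt19 were at 0.14 and 0.20 with thinning, at 0.30 and 0.027 with stem-marker cells, and ranged from -0.19 to 0.19 and -0.21 to 0.090. In surface-high against stem-high cells, Krt7 and Krt18 were at -0.11 and -0.32 with the stricter gate and Krt18 at -0.16 with thinning. Against normal colon, Krt18 ranged from -0.036 to 0.41 and Krt19 from -0.22 to 0.18 with 1 library left out, and Krt19 was at -0.0050 by DESeq2 and -0.28 with stem-marker cells.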

Other observations

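Within columnar cells of each library, the highest 25% by cycling markers (Mki67 and Top2a among them) held less Krt20, at 0.248 to 0.456 of the other columnar cells, and less Krt8, at 0.560 to 0.699, in all 5 libraries, while Krt18 ranged from 0.764 to 1.31. These are values without a test.

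Enteroendocrine cells (10, 11, 11 and 39 cells in the treated libraries) held 351, 456, 1140 and 554 CPM of Krt7, which is 1.38-, 1.57-, 2.10- and 4.37-fold the level in neutrophils, T cells and macrophages. Goblet cells of normal colon (31 cells) held 284 CPM of Krt7 (93 counts), against 118 in normal columnar cells, and 956 of Krt18 against 463. Their Krt8 to Krt18 ratio was 4.54, near the 4.59 of normal stem-high cells.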
